A study of Mus musculus with 6 samples.

Results

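The annexins are proteins that bind phospholipid membranes when calcium rises, and 9 of the annexin genes were followed through calcifying aorta. The members were taken by symbol: Anxa1, Anxa2, Anxa3, Anxa4, Anxa5, Anxa6, Anxa7, Anxa8 and Anxa11, which are 9 of the 27815 genes listed in each file. Each symbol matched a single Ensembl identifier. All 9 were at or above 1 FPKM in all 6 libraries, where FPKM is the number of reads divided by exon length in kilobases and by library depth, so the filter on low values removed none.

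Annexins share a core of repeated calcium-binding domains and differ in their amino-terminal tails, which carry the binding sites for S100 proteins and other partners. Matrix vesicles are small membrane sacs that bud from chondrocytes, osteoblasts and mineralising smooth muscle cells, and in which the first mineral crystals form. Annexins A2, A5 and A6 are among the main proteins of these vesicles, where they bind phosphatidylserine and matrix collagen and have been linked to calcium entry. In the vessel wall annexins are also known from macrophages, endothelium and smooth muscle, where they act in membrane repair, vesicle traffic and the restraint of inflammation.

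Polyadenylated RNA of C57BL/6 mouse aorta was sequenced in 6 libraries, 2 in each of 3 groups. The Ctrl group was wild type and 2 months old by its age label (8 weeks by the protocol). The ApoE group was ApoE-/-, that is, without apolipoprotein E in any cell, and was kept on chow for 16 months, which gave atherosclerotic calcification. In the CKD group, chronic kidney disease came with medial calcification; its genotype label names the disease and no allele. Its mice lost both poles of one kidney at 8 weeks of age and the other kidney after 1 week of recovery, and then received 2% phosphate in the diet and 0.45% NaCl in the water for 4 weeks. For CKD the labelled age is 16 months, at odds with that protocol, so the age of this group is uncertain. Between ApoE and Ctrl, genotype and age differ together and cannot be told apart. By the protocols given, CKD differs from Ctrl in surgery, diet and drinking water, and perhaps in age. From ApoE it differs in these and in the ApoE-/- genotype. These cannot be told apart either. Whether the 2 libraries of a group came from separate mice or from pools is not labelled. SDs and p-values thus cover the library-to-library spread alone, and this may be technical. The whole aorta was used, so fewer cells of a type and less RNA per cell cannot be told apart.

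Library depth, from the worth of 1 read recovered from the values, ran from 14.44 to 16.64 M reads. Mitochondrial genes made up 3.13% and 4.19% of the reads recovered from the values in Ctrl, 9.67% and 10.9% in ApoE and 9.99% and 5.7% in CKD. The part of this shift in the annexin values was not tested. The members had between 46 (Anxa8 in a Ctrl library) and about 12860 (Anxa1 in an ApoE library) reads. The number for Anxa1 is an estimate, since its values did not give whole reads. Apoe, the deleted gene, had 13.2 and 11.4 FPKM in the ApoE libraries, against 627 and 756 in Ctrl and 1410 and 1447 in CKD. The 10 smooth muscle markers summed to 8991 and 8047 FPKM in Ctrl, 707 and 618 in ApoE and 3753 and 6359 in CKD, and no marker was at 0 in every library of a group. Exons of Anxa2, Anxa3, Anxa4 and Anxa11 overlap another annotated gene over 75 to 113 bases, and these neighbours did not exceed 0.872 FPKM. Since strand was not kept in the libraries, reads within those overlaps cannot be assigned.

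The promoters of 4 members are shown as examples of genes with the changes described below. Anxa8 was higher in both disease groups, and Anxa11 was lower in ApoE than in either other group. Anxa4 and Anxa2 were higher in ApoE than in either other group. So were Anxa1 and Anxa5, whose promoters are not printed. The sequences are from RefSeq on GRCm38.p6 and give the bases just before the outermost annotated start of the gene, 5′ to 3′ on the gene's strand. Capitals mark an AP-1 site or a GC box on either strand. The TATA box, the CArG box and an E-box were searched as well and were not found in these stretches. Anxa8 is shown at chr14:34085729-34085978, Anxa2 at chr9:69453433-69453619, Anxa4 at chr6:86793585-86793834 and Anxa11 at chr14:25841905-25842154.
Anxa8: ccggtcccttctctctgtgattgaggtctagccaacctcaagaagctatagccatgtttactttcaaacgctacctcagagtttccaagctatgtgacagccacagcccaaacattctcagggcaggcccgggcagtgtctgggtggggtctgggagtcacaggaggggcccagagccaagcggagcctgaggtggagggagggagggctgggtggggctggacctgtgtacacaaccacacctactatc
Anxa2: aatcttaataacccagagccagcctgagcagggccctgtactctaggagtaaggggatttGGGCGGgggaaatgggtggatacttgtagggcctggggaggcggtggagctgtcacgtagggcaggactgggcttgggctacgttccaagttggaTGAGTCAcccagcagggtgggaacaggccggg
Anxa4: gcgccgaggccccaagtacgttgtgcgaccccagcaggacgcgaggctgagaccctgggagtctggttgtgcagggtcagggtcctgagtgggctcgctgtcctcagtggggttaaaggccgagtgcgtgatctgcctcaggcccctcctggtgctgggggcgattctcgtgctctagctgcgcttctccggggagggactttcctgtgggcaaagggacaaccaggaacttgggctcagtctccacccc
Anxa11: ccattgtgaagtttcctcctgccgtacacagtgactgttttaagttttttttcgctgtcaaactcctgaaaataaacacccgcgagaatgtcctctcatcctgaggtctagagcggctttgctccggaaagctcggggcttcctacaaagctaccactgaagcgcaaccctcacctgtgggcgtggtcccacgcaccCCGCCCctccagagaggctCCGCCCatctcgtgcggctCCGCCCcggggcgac
The stretches of Anxa8 and Anxa4 held none of these letters. That of Anxa2 held an AP-1 site and a GC box, and that of Anxa11 held 3 GC boxes.

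Promoter windows of 300 bases (250 before and 50 after a RefSeq start) were in the table for 7 of the 9 members; Anxa3 and Anxa6 are named only. Among these 7, an AP-1 site, searched as TGANTCA on both strands, was found for 1 member (Anxa2), against 7.81% of 32851 windows of all genes. A GC box, searched as GGGCGG, was found for 4 members (Anxa2, Anxa4, Anxa7 and Anxa11), against 35.7% of windows. That of Anxa4 began 7 bases after the RefSeq start, outside the stretch printed above. A member counted if any of its windows held a match, and Anxa4 and Anxa7 had more than 1 window. The shares over all genes are per window. A TATA box, searched as TATAAA, was found for 2 members, against 13.6% of windows. It began 32 bases before the RefSeq start of Anxa1 and 17 bases before that of Anxa2. The Anxa2 site lies past the stretch printed above, which ends before the outermost annotated start of the gene, at 69453620. The CArG box, the letters bound by serum response factor, was found for Anxa5 alone, where it began 26 bases after the start, against 1.63% of windows. The E-box, searched as CACGTG, was found for Anxa7 alone, against 7.15%. These matches describe the letters only, and the motifs were chosen with the expression values known.

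The first comparison asked how the annexins differed between the aorta with calcified plaques and the young wild-type aorta. In ApoE, Anxa1, Anxa2, Anxa4, Anxa5 and Anxa8 rose, Anxa6 and Anxa11 fell, and Anxa3 and Anxa7 did not pass the test. Thus 7 of 9 members were called by limma at an adjusted p below 0.05, where 44.1% of all 14074 tested genes were called (19.8% higher and 24.3% lower). The members' median log2 fold change was 0.77, against -0.07 over all tested genes. Their libraries did not overlap between the groups for 7 of 9 members, against 79.4% of tested genes. The 10 macrophage markers summed to 332 and 306 FPKM in the Ctrl libraries, against 6520 and 10740 in ApoE, and 10 of 10 were called higher. All 10 smooth muscle markers were called lower, 9 of 10 white adipocyte markers higher (summed 469 and 1171 FPKM in Ctrl, 3860 and 4026 in ApoE) and 6 of 10 adventitial fibroblast markers lower (3164 and 2818, then 1664 and 1177). No marker of these 4 lists was at 0 in every library of either group. The part of these shifts in the annexin values was not tested. Without Ctrl 1, Ctrl 2 or ApoE 2, 3 members were called (Anxa4, Anxa8 and Anxa11), and without ApoE 1 these and Anxa1 were called, 4 in all.

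**Figure D1:**
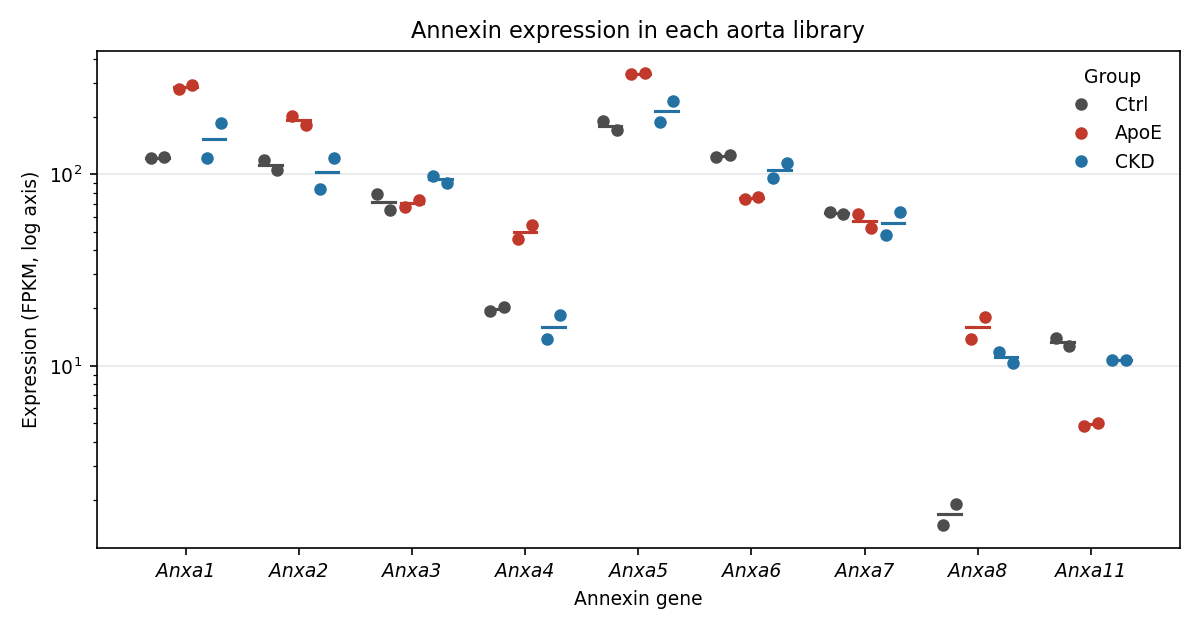
Expression of the 9 annexin genes in each library, in FPKM on a log axis. Each point is 1 library, each short line the mean of the 2 libraries of a group (grey Ctrl, red ApoE, blue CKD). The ApoE points of Anxa1, Anxa2, Anxa4 and Anxa5 lie above all other points of those genes, those of Anxa6 and Anxa11 lie below, and the Ctrl points of Anxa8 (1.47 and 1.90) lie below all its others.

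Of the annexins best known from matrix vesicles, A5 had the highest mean FPKM of the 9 members in all 3 groups. Anxa5 (ENSMUSG00000027712; GRCm38 chromosome 3, 36448923 to 36475894, minus strand), whose protein binds phosphatidylserine and type II and X collagen, stood at 189 and 169 FPKM in Ctrl, 335 and 337 in ApoE and 187 and 242 in CKD. The ApoE libraries were almost equal and above all others, whereas CKD 1 lay between the Ctrl libraries and CKD 2 above both. The log2 fold change of ApoE over Ctrl was 0.90 (SE 0.19, limma adjusted p = 0.013), from 179 ± 13.9 to 336 ± 0.961 FPKM (SD, n = 2). Anxa2 (ENSMUSG00000032231; chromosome 9, 69453620 to 69491795, plus strand), which pairs with S100A10 and binds plasminogen and its activator at the cell surface, stood at 118 and 106 FPKM in Ctrl, 202 and 181 in ApoE and 84.2 and 121 in CKD. Both ApoE libraries were above the other 4, and the CKD libraries lay on both sides of Ctrl. Its log2 fold change of ApoE over Ctrl was 0.77 (SE 0.22, limma adjusted p = 0.0335).

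Anxa6 went the other way. This gene (ENSMUSG00000018340; chromosome 11, 54979108 to 55033445, minus strand) encodes the annexin with a duplicated core, and its exons merge into 26 blocks against 12 to 15 for the other members. It stood at 122 and 126 FPKM in Ctrl, 74.0 and 75.9 in ApoE and 96.1 and 114 in CKD. The 3 groups did not overlap, with Ctrl highest and ApoE lowest. The log2 fold change was -0.72 for ApoE over Ctrl (SE 0.16, limma adjusted p = 0.0144). With the adipocyte level as a covariate it was -0.50 (limma adjusted p = 0.292), while 6 members stayed called. The adipocyte marker sum was lower in both Ctrl libraries (469 and 1171 FPKM) than in any other library (3006 FPKM or more). Covariate and group thus cannot be fully told apart. Within each library the level of Anxa5 was 1.54 and 1.34 times that of Anxa6 in Ctrl, 4.53 and 4.43 times in ApoE, and 1.94 and 2.12 times in CKD.

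Anxa1 encodes a protein induced by glucocorticoids that inhibits phospholipase A2 and restrains neutrophil entry through formyl peptide receptors. The gene (ENSMUSG00000024659; chromosome 19, 20373428 to 20390944, minus strand) stood at 122 and 123 FPKM in Ctrl, 277 and 294 in ApoE and 122 and 185 in CKD. The 2 ApoE libraries were above all others, and CKD 1 was level with Ctrl while CKD 2 was higher. The log2 fold change of ApoE over Ctrl was 1.22 (SE 0.23, limma adjusted p = 0.00882). Neutrophil markers, cells rich in annexin A1, summed to 2.95 and 25.7 FPKM in the Ctrl libraries, against 67.4 and 25.0 in ApoE, and 2 of 8 tested were called higher; Ly6g was at 0 in the Ctrl and CKD libraries. Of the genes of its receptors, Fpr1 and Fpr2 were in the files and neither reached the filter. Fpr1 stood at 2.13 FPKM in ApoE 1 and at no more than 0.105 in each other library, and Fpr2 at 1.70 in ApoE 1 and at no more than 0.534 elsewhere.

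Anxa4 (ENSMUSG00000029994; chromosome 6, 86736840 to 86793584, minus strand), an annexin of secretory and polarised cells, stood at 19.4 and 20.4 FPKM in Ctrl, 45.7 and 54.3 in ApoE and 13.7 and 18.3 in CKD. The groups did not overlap, and ApoE was the highest. The log2 fold change of ApoE over Ctrl was 1.28 (SE 0.18, limma adjusted p = 0.00299). It was called under all 14 alternative settings for this comparison, at 1.16 to 1.62.

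Anxa8 showed the greatest ratio between groups of any member. The gene (ENSMUSG00000021950; chromosome 14, 34085981 to 34100571, plus strand), which encodes an annexin of late endosomes once named vascular anticoagulant beta, stood at 1.47 and 1.90 FPKM in Ctrl, 13.9 and 18.0 in ApoE and 11.8 and 10.3 in CKD. The Ctrl values rested on 46 and 54 reads, with exact 95% Poisson intervals of 1.08 to 1.96 and 1.43 to 2.48 FPKM, which cover counting error only. The lowest interval among the disease libraries, that of CKD 2, ran from 9.14 to 11.6 FPKM. The mean was 9.45 times that of Ctrl in ApoE and 6.57 times in CKD. On the log2(FPKM + 1) scale, on which changes of weakly expressed genes come out too small, the fold change of ApoE over Ctrl was 2.65 (SE 0.17, limma adjusted p = 0.00031).

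Anxa11 was the member that fell most in ApoE. Its protein tethers RNA granules to lysosomes and binds S100A6. The gene (ENSMUSG00000021866; chromosome 14, 25842156 to 25886804, plus strand) stood at 13.9 and 12.7 FPKM in Ctrl, 4.86 and 5.03 in ApoE and 10.8 in both CKD libraries. The groups did not overlap, and the log2 fold change of ApoE over Ctrl was -1.27 (SE 0.11, limma adjusted p = 0.000724).

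The other two members did not pass the test between ApoE and Ctrl. Anxa3 (ENSMUSG00000029484; chromosome 5, 96793339 to 96845966, plus strand), known from neutrophils and endothelium, stood at 78.7 and 65.2 FPKM in Ctrl, 67.5 and 73.5 in ApoE and 97.8 and 90.1 in CKD. Its 95% interval for ApoE over Ctrl ran from -0.43 to 0.38 on the log2 scale. Anxa7 (ENSMUSG00000021814; chromosome 14, 20455260 to 20480133, minus strand), which promotes membrane fusion and binds sorcin, stood at 63.8 and 61.7 FPKM in Ctrl, 61.9 and 52.5 in ApoE and 48.4 and 63.6 in CKD. Its libraries overlapped in every comparison, and its interval for ApoE over Ctrl ran from -0.59 to 0.32. Anxa7, Anxa8 and Anxa11 are all on chromosome 14, and over Ctrl 1 did not pass the test, 1 rose and 1 fell.

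The second comparison asked how the annexins differed between the aorta with medial calcification and the young wild-type aorta. Anxa8 was the only member called by limma, with a log2 fold change of 2.17 (SE 0.17, limma adjusted p = 0.0136), and both CKD libraries were above both Ctrl libraries. Across all tested genes 5.44% were called (2.23% higher and 3.21% lower), and 2 of 9 members, Anxa8 and Anxa11, had an unadjusted p below 0.05, as did 4217 of the 14074 tested genes. The libraries did not overlap for 5 of 9 members, against 64.2% of tested genes: Anxa3 and Anxa8 were higher in CKD, and Anxa4, Anxa6 and Anxa11 lower. The members' median log2 fold change was -0.15, against -0.03 over all tested genes.

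The size of the Anxa8 difference in CKD held when a library was left out, with log2 fold changes of 2.05 to 2.28, but its call did not. Its limma adjusted p was 0.0206 without CKD 2, and between 0.0517 and 0.0948 without Ctrl 1, Ctrl 2, ApoE 1, ApoE 2 or CKD 1. It was 0.301 with the adipocyte level as a covariate, where the log2 fold change was 1.81 and 0 of all genes were called. Mesothelium, the lining of serous cavities, had 10 markers that summed to 22.6 and 20.0 FPKM in Ctrl, 30.1 and 31.1 in ApoE and 86.1 and 72.0 in CKD. Over Ctrl, 7 of 9 tested were called higher in CKD and 4 of 9 in ApoE, and Wt1 was at 0 in both Ctrl libraries. In CKD the macrophage markers summed to 684 and 1179 FPKM, against 332 and 306 in Ctrl. Of these 10, 5 were called higher and 8 had an unadjusted p below 0.05. Those of white adipocytes summed to 9381 and 3006 FPKM in CKD, against 469 and 1171 in Ctrl. Of the adipocyte markers 1 of 10 was called higher, although 10 of 10 had an unadjusted p below 0.05. Their median log2 fold change was 2.73. The part of these cells in the Anxa8 values was not tested.

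**Figure D2:**
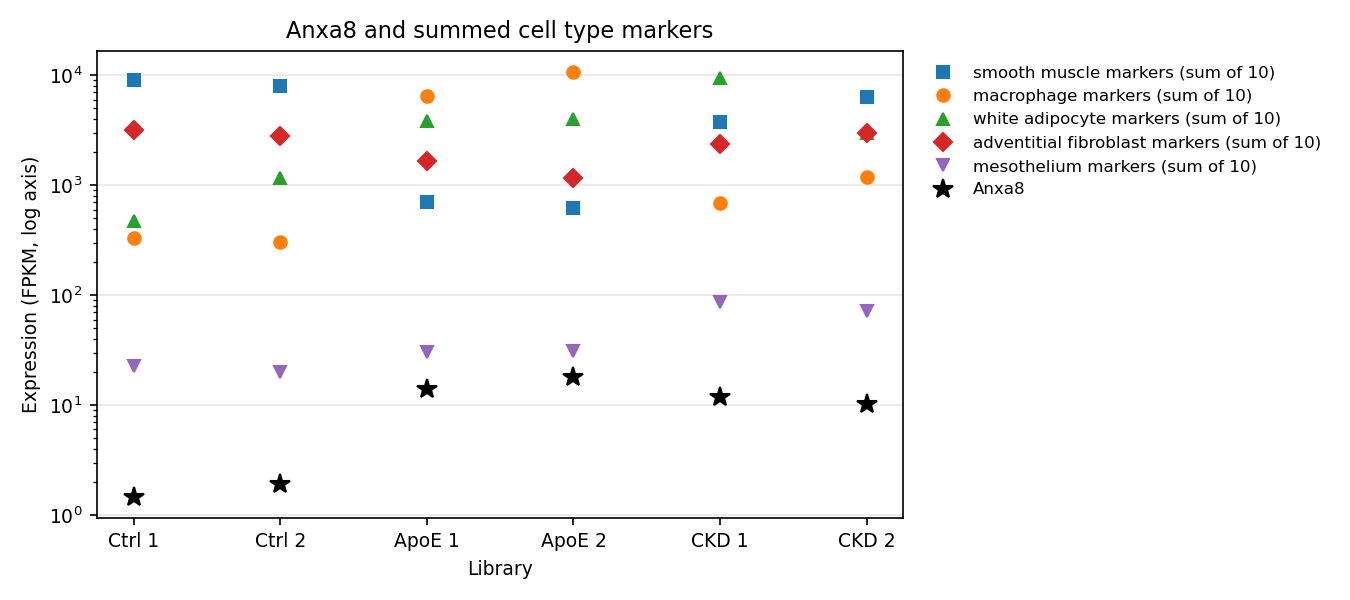
Anxa8 (black stars) beside the summed expression of 10 markers each of 5 cell types in each library, in FPKM on a log axis. Anxa8 is low only in the Ctrl libraries; the mesothelial sum is highest in CKD (86.1 and 72.0), the macrophage sum in ApoE (6520 and 10740) and the adipocyte sum in CKD 1 (9381).

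For the 8 other members the 95% intervals of CKD over Ctrl bound the difference on the log2 scale. They ran from -0.22 to 0.72 for Anxa5, -0.68 to 0.39 for Anxa2, -0.63 to 0.14 for Anxa6 and -0.27 to 0.86 for Anxa1. They ran from -0.74 to 0.13 for Anxa4, -0.02 to 0.79 for Anxa3, -0.63 to 0.28 for Anxa7 and -0.56 to -0.01 for Anxa11. The misses of the threshold therefore do not show equal levels. The CKD libraries differed from each other more than those of the other groups, with a median difference of 0.37 on the log2 scale over the members, against 0.12 in Ctrl and 0.12 in ApoE. The same median over all tested genes was 0.24 in CKD, 0.12 in Ctrl and 0.18 in ApoE. CKD 2 was the higher library for 6 members, by 0.60 for Anxa1 and 0.52 for Anxa2, and CKD 1 for 3. CKD 1 also had the lower smooth muscle sum (3753 against 6359 FPKM) and the higher adipocyte sum (9381 against 3006 FPKM), and the part of these was not tested.

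The third comparison set the ApoE aorta with calcified plaques against the CKD aorta with medial calcification. Anxa1, Anxa2, Anxa4 and Anxa5 were higher in ApoE than in CKD and Anxa11 was lower, 5 called members of 9, where 39.7% of all tested genes were called (18.5% higher and 21.2% lower). Anxa4 differed most, with a log2 fold change of 1.59 (SE 0.18, limma adjusted p = 0.00207), followed by Anxa11 at -0.98 (SE 0.11, limma adjusted p = 0.0022). Anxa1 differed by 0.92 (limma adjusted p = 0.0244), Anxa2 by 0.91 (limma adjusted p = 0.0211) and Anxa5 by 0.66 (limma adjusted p = 0.039). The values of Anxa6 (-0.48, limma adjusted p = 0.0568), Anxa8 (0.48, limma adjusted p = 0.0687) and Anxa3 (-0.41, limma adjusted p = 0.0965) missed the threshold, although the libraries of these 3 genes did not overlap. Libraries were apart for 8 of 9 members, against 71% of tested genes. The median log2 fold change of the members was 0.48, against -0.04 over all tested genes. Macrophage markers (8 of 10 called higher) and smooth muscle markers (10 of 10 called lower) moved in the same comparison, and their part was not tested. Without Ctrl 1, Ctrl 2, ApoE 1 or ApoE 2, 2 members were called, Anxa4 and Anxa11. Without CKD 1, Anxa6 was called (limma adjusted p = 0.0255) and Anxa5 was not (0.0606).

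**Figure D3:**
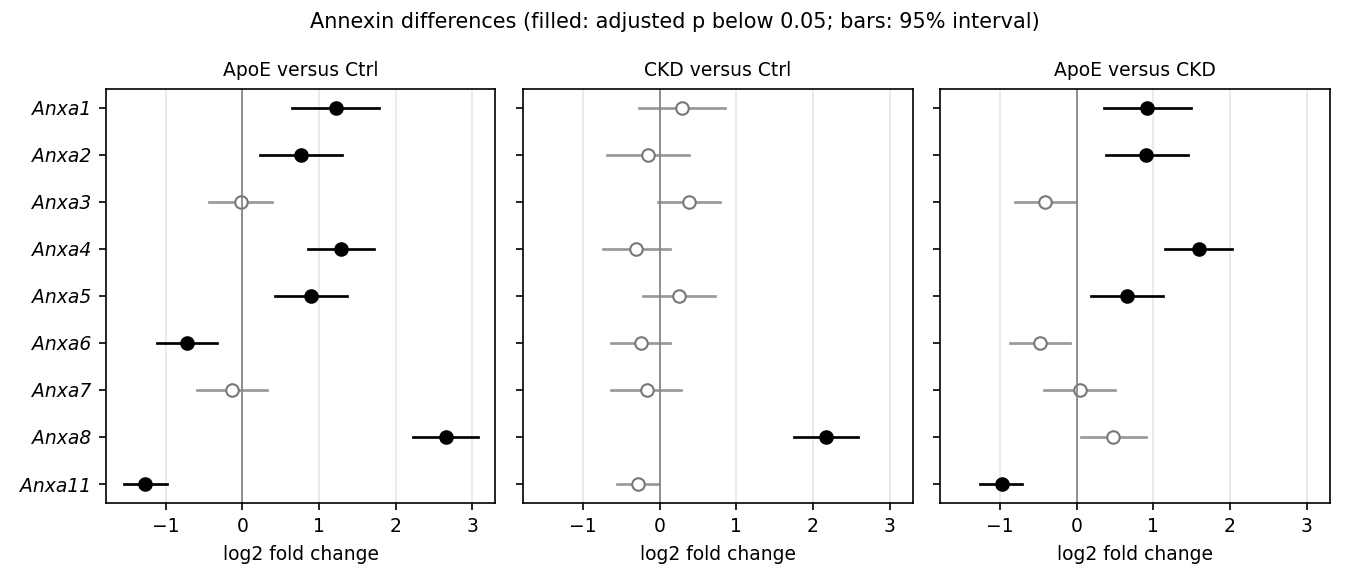
Difference of each annexin between groups, as log2 fold change of FPKM + 1 with its 95% interval from limma. Filled points have an adjusted p below 0.05. Anxa8 lies at 2.65 and 2.17 in the comparisons with Ctrl, and Anxa4 (1.59) and Anxa11 (-0.98) lie farthest from 0 between ApoE and CKD. ApoE versus Ctrl and CKD versus Ctrl share the Ctrl libraries.

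Added up, the 9 transcripts came to 729 and 686 FPKM in Ctrl, 1082 and 1091 in ApoE and 671 and 855 in CKD. The ApoE sums were above all others, and the CKD sums lay on both sides of Ctrl. Anxa5 made up 25.9% and 24.7% of the sum in Ctrl, 31.0% and 30.9% in ApoE and 27.8% and 28.2% in CKD. The share of Anxa1 was 16.7% and 17.9% in Ctrl, 25.6% and 26.9% in ApoE and 18.1% and 21.7% in CKD. The share of Anxa6 was 16.8% and 18.4% in Ctrl, 6.84% and 6.96% in ApoE and 14.3% and 13.3% in CKD. Thus in ApoE the pool was larger and held more Anxa1 and Anxa5 and less Anxa6.

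**Figure D4:**
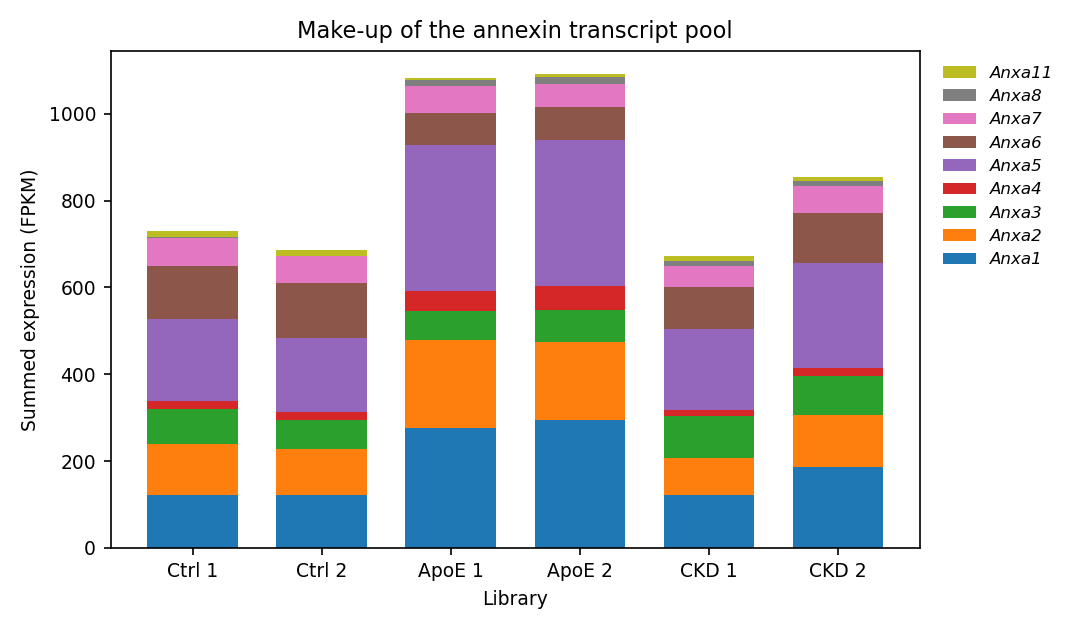
Summed FPKM of the 9 annexin genes in each library, stacked by gene. The ApoE bars reach 1082 and 1091, with larger Anxa1 and Anxa5 parts and a smaller Anxa6 part than in Ctrl (729 and 686) and CKD (671 and 855).

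The order of the mean levels in FPKM, in which reads are divided by the merged length of all annotated exons, began with Anxa5 in every group. In Ctrl it went on with Anxa6, Anxa1, Anxa2, Anxa3, Anxa7, Anxa4, Anxa11 and Anxa8, and only Anxa6 and Anxa1 overlapped as neighbours. In ApoE it was Anxa5, Anxa1, Anxa2, Anxa6, Anxa3, Anxa7, Anxa4, Anxa8 and Anxa11, with an overlap only between Anxa7 and Anxa4. In CKD it was Anxa5, Anxa1, Anxa6, Anxa2, Anxa3, Anxa7, Anxa4, Anxa8 and Anxa11, where Anxa6, Anxa2 and Anxa3 overlapped in turn, as did Anxa8 and Anxa11. Anxa11 was above Anxa8 in the Ctrl libraries and below it in the ApoE libraries. The order between genes depends on the exon lengths used. In Ctrl 1, Anxa2 had 7346 reads over 3731 bases and Anxa5 had 5593 over 1777 bases. Which transcripts were in use was not tested, and the shares and ratios between genes carry the same limit.

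The genes with the most similar profiles were found by the root mean square difference of centred log2(FPKM + 1) over the 6 libraries, among 7414 genes whose mean reached 5 FPKM. The members, genes without a symbol and those with Gm, Rik, immunoglobulin or T cell receptor names were left out. For Anxa5 they were Procr (0.055), St3gal1 (0.067) and Vps33a (0.071). For Anxa2 they were Clic1 (0.032), Stx7 (0.063) and Plxnb2 (0.066), and for Anxa6 Foxj2 (0.039), Pomgnt1 (0.045) and Kmt5b (0.048). Anxa4 was nearest to Glb1 (0.038), Nagk (0.044) and Glmp (0.049), and Anxa1 to P2rx7 (0.085), Atp6ap2 (0.095) and Clec2d (0.101). Anxa11 was nearest to Mical1 (0.043), Myrip (0.063) and Slc20a2 (0.065), Anxa3 to Pithd1 (0.034), Rnps1 (0.069) and Ptpn23 (0.07), and Anxa7 to Chmp3 (0.035), Fam45a (0.039) and Mfap3 (0.042). Anxa8 had no gene as near: Tmem37 came first at 0.246, then Car13 (0.3) and mt-Tp (0.34). Profiles were centred and not scaled, so distances tend to be larger for genes with large differences, such as Anxa8. Within the family Anxa1 and Anxa5 were nearest to each other (0.162), as were Anxa6 and Anxa11 (0.263), and the nearest member to Anxa8 was Anxa1 at 0.837.

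Annexins work with S100 proteins and other partners. The counts of called genes in the lists that follow stand beside 44.1% of all tested genes called in ApoE over Ctrl (19.8% higher, 24.3% lower) and 5.44% in CKD over Ctrl. The all-gene medians beside theirs are -0.07 and -0.03. Several lists lie near these shares, such as 4 of 11 binding partners and 6 of 14 vesicle release genes in ApoE over Ctrl. Of 11 tested binding partners, S100a1 and S100b rose and Ahnak and Dysf fell in ApoE over Ctrl, 7 were not called, and the median log2 fold change was 0.22. S100a10, the partner of annexin A2, stood at 125 and 108 FPKM in Ctrl, 193 and 136 in ApoE and 132 and 156 in CKD, and was not called (0.47 for ApoE over Ctrl, limma adjusted p = 0.135). The level of Anxa2 was 0.945 and 0.977 times that of S100a10 in Ctrl, 1.05 and 1.33 times in ApoE, and 0.639 and 0.775 times in CKD. S100a11, the partner of annexin A1, was likewise not called (0.25, limma adjusted p = 0.378), and the level of Anxa1 was 0.314 and 0.348 times that of S100a11 in Ctrl, 0.58 and 0.721 times in ApoE, and 0.398 and 0.449 times in CKD. In CKD over Ctrl limma called 0 of the 11 partners, with 3 at an unadjusted p below 0.05, and a median of 0.03. Of the annexins outside the list, Anxa9 was tested and rose in ApoE over Ctrl (0.96, limma adjusted p = 0.00388), from 0.928 and 1.21 to 2.97 and 3.08 FPKM.

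Of 13 tested enzymes and transporters of matrix vesicles, 4 rose and 2 fell in ApoE over Ctrl and 2 rose in CKD over Ctrl, with medians of 0.12 and 0.31. Mmp13, Mmp14, Car2 and Slc20a1 rose and Slc20a2 and Enpp3 fell in ApoE, and Car2 and Slc20a1 rose in CKD. Slc20a1, a sodium-phosphate cotransporter, rose in both, by 0.44 (limma adjusted p = 0.0409) and 0.74 (limma adjusted p = 0.041). Slc20a2, a cotransporter of the same family, fell in ApoE over Ctrl (-1.33, limma adjusted p = 0.000618), from 13.9 and 12.7 to 4.63 and 4.74 FPKM. It was not called in CKD over Ctrl (-0.19, limma adjusted p = 0.298). Alpl, the phosphatase that marks these vesicles, was not called, at 3.11 and 2.93 FPKM in Ctrl, 5.48 and 1.22 in ApoE and 6.21 and 4.53 in CKD. Of 10 tested matrix ligands, 2 rose and 4 fell in ApoE, and 1 rose and 1 fell in CKD. Spp1 and Col2a1 rose in ApoE, while Col1a1, Col1a2, Fbn1 and Itgb5 fell. In CKD Spp1 rose and Col1a1 fell. Spp1 stood at 0.474 and 0.561 FPKM in Ctrl, 3109 and 2652 in ApoE and 23.4 and 60.0 in CKD. Its log2 fold change was 10.89 in ApoE over Ctrl (limma adjusted p = 0.000172) and 4.67 in CKD over Ctrl (limma adjusted p = 0.0145). Itgb5, an integrin chain that binds annexin A5, was among those that fell in ApoE (-0.71, limma adjusted p = 0.0418).

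Of 14 vesicle release genes, Cd63, Sdcbp and Chmp4b rose and Rab27a, Rab27b and Cd81 fell in ApoE over Ctrl. Cd63, a tetraspanin of late endosomes and exosomes, went from 92.5 and 90.1 to 199 and 210 FPKM. In CKD over Ctrl limma called 0 of the 14, and 0 had an unadjusted p below 0.05. Of 13 membrane repair genes, 7 fell in ApoE over Ctrl and 1 rose, with a median of -0.79. Those that fell were Cavin3, Dysf, Cavin1, Cav1, Capn2, Ehd2 and Ahnak, of which dysferlin (Dysf) and the caveola genes are also abundant in muscle, and the part of the smooth muscle shift was not tested. In CKD over Ctrl limma called 0 of the 13, with 7 at an unadjusted p below 0.05.

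Of 15 genes of phosphatidylserine exposure and recognition, 3 rose and 2 fell in ApoE over Ctrl, while limma called 0 in CKD over Ctrl (3 at an unadjusted p below 0.05). The scramblase gene Plscr1 rose (1.36, limma adjusted p = 0.00419) and the scramblase gene Ano6 fell (-0.60, limma adjusted p = 0.0175). Of 7 phospholipase A2 genes, 3 rose and 2 fell in ApoE, and Pla2g7, the lipoprotein-associated enzyme, was the only one called in CKD over Ctrl (2.22, limma adjusted p = 0.0185). Pla2g4a, the cytosolic enzyme that releases arachidonic acid, fell from 22.6 and 18.9 FPKM in Ctrl to 5.70 and 3.34 in ApoE.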

How the data were processed

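The authors' deposited values were taken as FPKM from the values themselves, because their unit is stated in neither headers nor labels. Tools listed, per the submitters' processing notes, are HISAT2 2.1.0, Bowtie2 2.2.3 and TopHat2, and the build is GRCm38. What each tool did, how genes were counted and with which annotation is not given in the sources used here. In 5 files the identifiers stand above the values in 1 column. FPKM times GENCODE M21 exon length gave whole reads, within 0.05, for 89.5% to 89.9% of values, which gave the depth, and for 7 of the 9 annexins in every library. Anxa1 and Anxa7 were the exceptions, so their read numbers are estimates. Symbols matched 27695 of 27815 identifiers.

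Genes reaching 1 FPKM in 2 or more libraries (14074) were tested on the log2(FPKM + 1) scale. All 6 libraries entered a single limma fit (version 3.58.1, R 4.3.3, variance trend, robust) with a mean for each group, with Benjamini-Hochberg adjustment over all genes tested; genes below 0.05 were called. The fit was also run on simulated data with planted changes and independent noise for each gene, which checks the code and not these libraries. The 9 annexins are all named. Other genes were picked by a rule of up to 4 called members per list, or the most abundant, and the 3 most similar profiles. Not all genes so picked are named. Some were added for their role (S100a10, S100a11, Slc20a1, Alpl, Itgb5, Fpr1, Fpr2, Ano6, and in counts of few genes). The members, lists and rules were chosen with earlier results of these data known, and no test was made over the lists. Alternatives were another pseudocount, filter, scaling or sample set, a replicate block, leaving out each library, and the mean log2 level of 10 white adipocyte markers as a covariate.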

Additional observations from a re-analysis of the deposited data

How the results depend on the processing

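For ApoE versus Ctrl, 7 annexins were called; the count was 3 to 7 with 1 library left out and 6 or 7 under every other alternative. Anxa4, Anxa8 and Anxa11 were called under all 14 alternatives. Of all genes, 6208 were called, 2992 to 7022 with 1 library left out and 1590 with the adipocyte level as a covariate. For CKD versus Ctrl, 1 annexin was called, and 0 without a filter, with the other group left out, and with the adipocyte level as a covariate (2, 1 and 3 members at an unadjusted p below 0.05); with 1 library left out it was 0 to 1. Of all genes, 766 were called, 0 to 2366 with 1 library left out, 1 without a filter, 3 with the other group left out, 46 with the replicate block and 0 with the covariate. For ApoE versus CKD, 5 annexins were called, 3 without a filter, 2 with the other group left out and 2 to 5 with 1 library left out. Of all genes, 5592 were called, and 2559 to 4941 with 1 library left out. Leaving out a library lowered some counts and raised others. Fewer libraries leave fewer degrees of freedom, and the cause of these shifts was not tested.

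No label says that the replicate numbers pair the libraries. Between-library differences correlated across 14074 genes at 0.05 (Ctrl and ApoE), -0.23 (Ctrl and CKD) and -0.1 (ApoE and CKD). With 2 libraries a group these values cannot decide on a pairing, so the block is only a check. With the replicate block 6, 1 and 4 annexins were called in the 3 comparisons; Anxa2 lost its call against Ctrl and Anxa5 against CKD.

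No called annexin changed sign. Uncalled ones did. Anxa3 in ApoE versus Ctrl (-0.02) was 0.05 with median ratio scaling, 0.00 with upper quartile scaling, 0.11 without Ctrl 1, 0.04 without ApoE 1 and 0.03 with the adipocyte level as a covariate. Anxa7 in ApoE versus Ctrl was 0.30 with that covariate, under which Anxa2, Anxa4 and Anxa7 in CKD versus Ctrl were 0.51, 0.04 and 0.27. In CKD versus Ctrl, leaving out 1 library gave -0.41 to 0.11 for Anxa2 and -0.37 to 0.02 for Anxa7 (highest without CKD 1), and -0.01 to 0.6 for Anxa1 (lowest without CKD 2). Anxa7 in ApoE versus CKD ran from -0.16 (without CKD 1) to 0.23, and was -0.08 without ApoE 1.

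Each group had 2 libraries, which limits the precision, and the lowest read numbers behind a member were the 46 and 54 of Anxa8 in Ctrl.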
